A study of Mus musculus with 8 samples.

Results

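The comparison of Hira-null with WT undifferentiated mouse embryonic stem cells (mESCs) took in the 12542 genes, of 24421 in the table, that read at least 1 FPKM in 2 or more of the 4 day 0 libraries. FPKM is the number of sequenced fragments of a gene scaled by its length and by the size of the library. The WT cells were W9.5 mESCs and the Hira-null cells a single clone, Clone 104, so what the loss of Hira does cannot be told apart from what else sets this clone off. Both lines carried HA-tagged H3.3 and were kept undifferentiated on gelatin with serum and LIF, the cytokine that holds mESCs in the pluripotent state. RNA came from 2 biological samples of each line at day 0, and 4 further libraries came from the same lines after 15 days of hanging drop differentiation towards cardiomyocytes. Nothing in the labels ties the samples to separate clones or thaws, so p-values measure the spread between these samples. The spread of each gene was estimated from all 8 libraries, so those of day 15 also enter the day 0 p-values. At the edge of the rule, Rbm20 and 1700049G17Rik were kept with a second-highest value of 1.001 FPKM, and Gpr146 was left out at 0.9999 FPKM.

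HIRA is the chaperone that places the histone variant H3.3 into chromatin outside DNA replication, together with UBN1, UBN2, CABIN1 and ASF1A, while DAXX and ATRX place H3.3 at telomeres and repeats. A serum and LIF culture of mESCs is never uniform. Beside naive pluripotent cells it holds cells that lean towards implantation stages, and a minority that turn on primitive endoderm genes such as Gata4, Gata6 and Sox17 and then lay down a basement membrane of laminin and type IV collagen. Genes of the germline and of meiosis are mostly held silent in stem cells by DNA methylation and by repressors bound at their promoters. In bulk RNA of this kind, fewer cells of a type and less RNA per cell cannot be told apart.

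Hira itself was lower in the libraries labelled Hira-null, with 27.3 and 28.5 FPKM in WT against 12.4 and 11.4 FPKM in Hira-null (log2 change -1.17, SE 0.11, adjusted p = 3.57e-05). The Hira-null libraries still held 385 and 453 fragments of it. The gene lies at chr16:18877130-18970402 of the NCBIM37 (mm9) build, where the gene model Gm15797 overlaps it on the same strand, and which part of Hira was deleted is not stated in the labels or methods. Fold changes are differences of log2(FPKM + 1), so low genes read as smaller changes than they are, and the adjusted p-values are those of limma, after Benjamini-Hochberg over the 12542 genes. All 8 stem cell markers were present in every library, from 94.8 FPKM for Klf4 to 2358 FPKM for Dppa5a. The libraries held 6897009 to 8792091 recovered fragments, and replicates correlated at 0.9855 in WT and 0.9864 in Hira-null (Pearson, across genes) against 0.9406 to 0.9456 between the lines. Ribosomal precursor RNA (Rn45s) took 0.835% and 0.796% of fragments in Hira-null and 0.424% and 0.349% in WT, and the RNase P RNA (Rpph1) 0.917% and 0.908% against 0.625% and 0.642%. The part of this difference in RNA make-up in the results that follow was not tested.

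At an adjusted p of 0.05 or less, 2917 genes were higher in Hira-null (23.3% of those tested) and 2783 lower (22.2%), 5700 in all (45.4%). These shares are the background against which each gene group is read. A change of 2-fold or more as well was met by 665 genes that were higher (5.3%) and 371 that were lower (2.96%). Both Hira-null libraries lay above both WT libraries for 4658 genes (37.1%) and below them for 4480 (35.7%). Leaving out Hira-null replicate 1 took the calls to 1854 higher and 1844 lower, and leaving out Hira-null replicate 2 took the higher calls to 1937. The median log2 fold change over all genes was 0.01. WT cells expressed 11578 genes at 1 FPKM or more in both libraries and Hira-null cells 11969, and the 11211 shared genes made up 96.8% of the first set and 93.7% of the second. The 367 genes in the WT set alone and the 758 in the Hira-null set alone passed the filter through that line. Calls among them are a description.

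Level and base composition moved with these calls. Of the 2434 genes with a mean under 3 FPKM, 22.8% were higher and 9.98% lower, while of the 2137 genes at 30 to 100 FPKM 21.3% were higher and 35% lower. By the GC content of the longest coding transcript, known for 12030 of the genes (95.9%), the quintile poorest in GC (33.1% to 44.9%) had a median log2 fold change of -0.19, with 7.4% of genes higher and 32.1% lower. The richest quintile (56.5% to 72.9%) had a median of 0.28, with 41% higher and 10.8% lower. At day 15 the same quintiles had medians of -0.03 and 0.09. With each library centred within 20 bins of GC content, an adjustment added after the data were seen, 429 genes instead of 665 were higher by 2-fold or more. Beside each gene group below, the counts with this GC correction are given where they differ by over 1.5 times.

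Mouse chromosomes 8 and 11 stood apart from the rest. The 667 genes tested on chromosome 8 had a median log2 fold change of -0.38 and the 1075 on chromosome 11 one of -0.36, while every other autosome and the X lay between -0.09 (chromosome 13) and 0.23 (chromosome 7). On chromosome 8, 50.2% of genes were lower and 8.7% higher, and on chromosome 11 49.8% were lower and 8.56% higher, against 17.8% lower and 25.6% higher over the 10587 genes elsewhere. The shift was not limited to one region: in windows of 10 Mb with at least 10 genes, the median was below 0 in 12 of 12 windows on chromosome 8 and in 13 of 13 on chromosome 11. Windows below 0 were common elsewhere too, up to 8 of 9 on chromosome 18. The highest window median was -0.168 on chromosome 8 and -0.125 on chromosome 11, against 0.099 to 0.438 on the other autosomes and the X. The shift was alike in each pairing of a Hira-null with a WT library, from -0.37 to -0.38 on chromosome 8 and from -0.36 to -0.38 on chromosome 11. With the GC correction the medians were -0.45 and -0.43. Among genes at 20 FPKM or more in WT, where the added 1 FPKM weighs little, they were -0.52 (301 genes) and -0.53 (475 genes).

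The 4 day 15 libraries, which share no sample with those of day 0, had medians of -0.43 on chromosome 8 and -0.38 on chromosome 11, again below 0 in 12 of 12 and 13 of 13 windows. Chromosomes 8 and 11 held 14.1% of the genes tested and 31.5% of those called lower (of 12329 with a position), 870 genes, of which 128 were lower by 2-fold or more. With both chromosomes left out of the fit, an alternative added after the data were seen, 1848 genes were lower in place of 2783, and 237 in place of 371 were lower by 2-fold or more. Chromosome copy number was not analysed here, and its part in these values was not tested. Genes on chromosomes 8 and 11 are marked as such below.

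**Figure D1:**
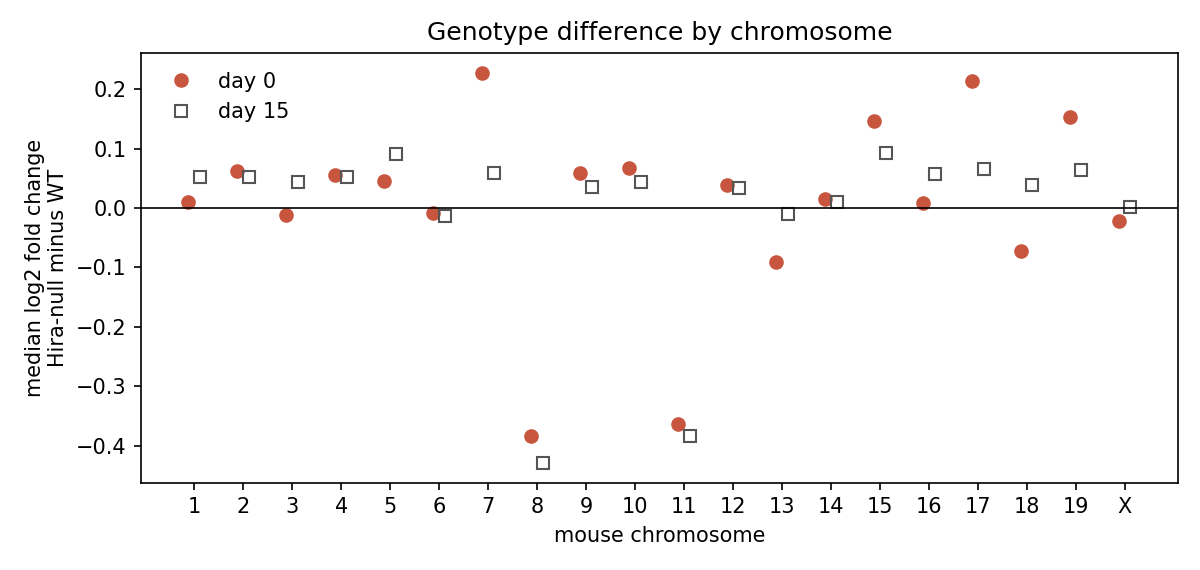
Median log2 fold change of Hira-null over WT (vertical axis, log2(FPKM + 1) scale) of the genes tested on each mouse autosome and the X (horizontal axis), at day 0 (filled circles) and day 15 (open squares). Chromosomes 8 and 11 lie between -0.43 and -0.36 at both days, and the others shown between -0.09 and 0.23. The Y, with 6 genes tested and medians of -0.12 and -0.74, is not drawn.

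Genes of primitive and visceral endoderm had the lowest median change of the 40 lists. Primitive endoderm arises beside the epiblast in the blastocyst and gives visceral endoderm, which takes up nutrients, and parietal endoderm, which secretes a thick basement membrane. Of 50 genes listed for primitive and visceral endoderm 40 were tested, and 25 were lower, 21 of them by 2-fold or more, and 8 higher (62.5% and 20%, against 22.2% and 23.3% of all genes; median log2 fold change -1.14, against 0.01). Outside chromosomes 8 and 11, 22 were lower and 8 higher, and with genes under 5 FPKM left out 14 were lower and 4 higher. The summed level of the 40 genes did not fall, at 1989 and 2009 FPKM in WT and 2076 and 2095 FPKM in Hira-null. The transcription factors fixed as markers of the lineage were all lower. Gata4 read 15.7 and 15.8 FPKM in WT against 1.93 and 1.64 FPKM in Hira-null (log2 change -2.59, SE 0.14, adjusted p = 2.04e-06). Gata6 read 10.6 and 10.4 FPKM in WT against 1.37 and 1.85 FPKM in Hira-null (log2 change -2.15, SE 0.16, adjusted p = 1.38e-05). Sox17 was counted by 127 and 179 fragments in WT and 0 and 5 in Hira-null. Sox7 was counted by 114 and 165 fragments in WT and 7 and 3 in Hira-null, and Foxa2 by 32 and 38 fragments in WT and 1 and 1 in Hira-null. The fitted folds of Sox17, Sox7 and Foxa2 depend on the added 1 FPKM, and all 3 passed the test (adjusted p = 2.25e-05, 2.36e-05 and 4.58e-05). All 3 passed the filter through the WT libraries alone, so these calls are a description. In none of these genes did a Hira-null library reach a WT library.

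The uptake machinery of visceral endoderm moved the same way. Cubn, which encodes the endocytic receptor cubilin, read 13.9 and 15.9 FPKM in WT against 0.398 and 0.342 FPKM in Hira-null (log2 change -3.53, SE 0.16, adjusted p = 6.72e-07). Cubn passed the filter through the WT libraries alone, so its call is a description. Its partner megalin, Lrp2, read 19.2 and 17.8 FPKM in WT against 4 and 3.97 FPKM in Hira-null (log2 change -1.97, SE 0.11, adjusted p = 3.01e-06), and the adaptor Dab2 18.7 and 21.1 FPKM in WT against 1.67 and 1.205 FPKM in Hira-null (log2 change -3.11, SE 0.12, adjusted p = 3.12e-07). The keratin Krt18 read 269 and 264 FPKM in WT against 79.3 and 80.1 FPKM in Hira-null (log2 change -1.73, SE 0.08, adjusted p = 9.50e-07), and Krt8, with which it forms filaments, had a log2 change of -2.05 (adjusted p = 6.43e-06). Some apolipoprotein genes of the same list were higher. Apoe, an apolipoprotein also made by many other cells, read 100.3 and 100.2 FPKM in WT against 428 and 435 FPKM in Hira-null (log2 change 2.09, SE 0.07, adjusted p = 1.93e-07). Apoa1 was listed at 0 in both WT libraries and at 2.95 and 2.65 FPKM in Hira-null (adjusted p = 1.59e-04). Apoa2 was counted by 4 and 0 fragments in WT and 19 and 24 in Hira-null (adjusted p = 4.82e-04). Apoa1 and Apoa2 passed the filter only with the Hira-null libraries, where they were high, so both calls are a description. Afp and Ttr, defining products of visceral endoderm, stayed under the filter and were not tested. Afp read 0.0651 and 0.0567 FPKM in WT against 2.93 and 0.927 FPKM in Hira-null. Ttr read 0.111 and 0.291 FPKM in WT against 1.07 and 0.466 FPKM in Hira-null, so that for both genes the Hira-null libraries lay above WT, against the direction of most of the list.

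Of 31 genes listed for parietal endoderm and basement membrane 29 were tested, with 19 lower, 10 of them by 2-fold or more, and 6 higher (65.5% and 20.7%; median -0.60). Outside chromosomes 8 and 11, 13 of 24 were lower and 6 higher, and with the GC correction 20 were lower and 3 higher. The chains of laminin 111, the first laminin of the embryo, fell together. Lama1 read 159.7 and 154 FPKM in WT against 13.7 and 14.1 FPKM in Hira-null (log2 change -3.40, SE 0.08, adjusted p = 8.19e-09). Lamb1 read 203 and 206 FPKM in WT against 54.5 and 48 FPKM in Hira-null (log2 change -1.98, SE 0.08, adjusted p = 3.12e-07), and Lamc1 fell by 1.61 on the log2 scale (adjusted p = 6.72e-07). Type IV collagen fell further: Col4a1 read 462 and 454 FPKM in WT against 27.9 and 26.8 FPKM in Hira-null (log2 change -4.02, SE 0.13, adjusted p = 1.03e-07) and Col4a2 226 and 219 FPKM in WT against 16.4 and 13.5 FPKM in Hira-null (log2 change -3.81, SE 0.12, adjusted p = 1.03e-07). Among genes with a mean of 5 FPKM or more in WT, Col4a1 had the largest fall after the non-coding RNA H19. Sparc, a collagen-binding matrix protein on chromosome 11, read 483 and 453 FPKM in WT against 158 and 154 FPKM in Hira-null (log2 change -1.58, SE 0.06, adjusted p = 3.12e-07), and Srgn, the proteoglycan serglycin, 28.2 and 29.4 FPKM in WT against 0.931 and 0.971 FPKM in Hira-null (log2 change -3.93, SE 0.18, adjusted p = 7.39e-07). Srgn passed the filter through the WT libraries alone, so its call is a description. Other matrix genes of the same list were higher, among them Lama5 (0.58, adjusted p = 0.00145, but 0.20 and not called with the GC correction, adjusted p = 0.0632), Col18a1 (0.72, adjusted p = 3.00e-04), Fbln1 (0.92, adjusted p = 1.37e-04) and Nid2 (0.36, adjusted p = 0.00291, but 0.10 with the GC correction, adjusted p = 0.197).

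Col4a1 and Col4a2 lie head to head on chromosome 8, at chr8:11198423-11312826 and chr8:11312805-11449287 of NCBIM37, and their annotated exons overlap. Reads of the overlap can be assigned to one of them only where counting used strand, which is not stated in the sources used here. Their common promoter is shown because the pair fell together, from RefSeq on GRCm38.p6, chr8:11312777-11313076, minus strand, 250 bases before to 50 after the Col4a1 start, with the 78 bases that also lie in the window of Col4a2 in capitals.
Col4a1: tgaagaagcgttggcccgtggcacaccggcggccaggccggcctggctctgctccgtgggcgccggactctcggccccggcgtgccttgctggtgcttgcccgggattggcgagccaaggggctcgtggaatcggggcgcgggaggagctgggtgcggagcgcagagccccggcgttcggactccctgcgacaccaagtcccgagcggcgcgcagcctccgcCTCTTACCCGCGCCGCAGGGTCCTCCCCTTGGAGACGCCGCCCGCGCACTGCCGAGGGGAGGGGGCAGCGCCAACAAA

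**Figure D2:**
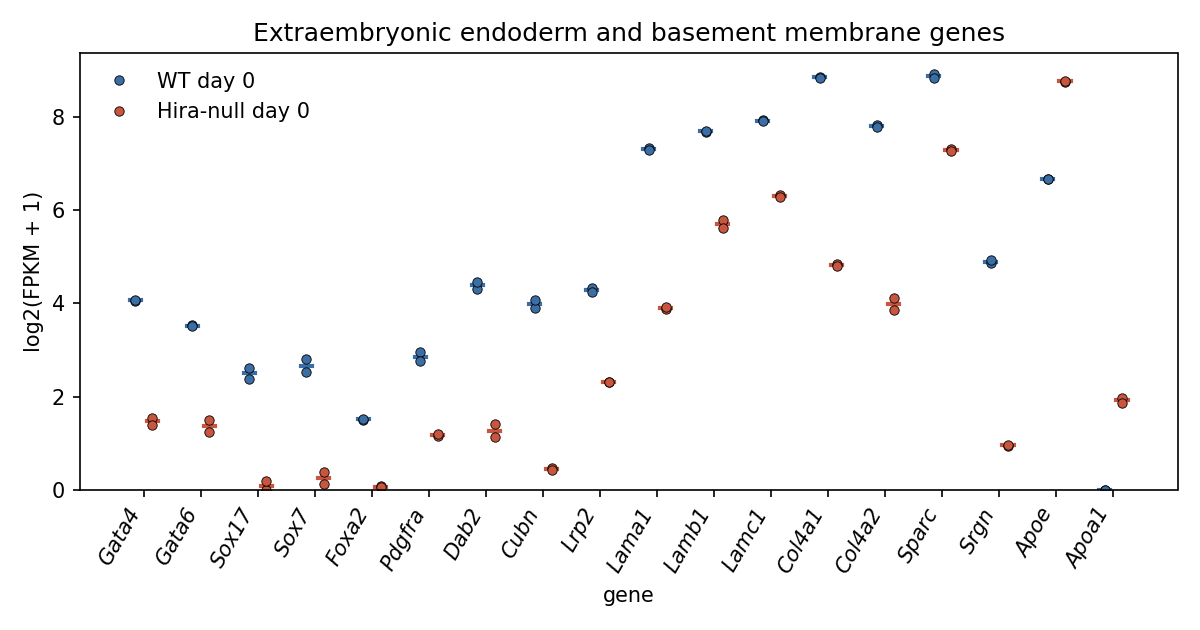
Values of extraembryonic endoderm and basement membrane genes as log2(FPKM + 1) (vertical axis) by gene (horizontal axis) in the 2 WT and 2 Hira-null day 0 libraries (points), with bars at the means. Hira-null lies below WT for every gene shown but Apoe and Apoa1, and the replicates of a group lie close together. The genes shown are a selection. List members that were higher, among them Apoa2, Lama5, Col18a1, Fbln1 and Nid2, are not drawn, nor are Afp and Ttr, which read above WT under the filter.

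Trophoblast is the other extraembryonic lineage of the blastocyst. Of 25 trophoblast genes tested 13 were lower, 9 by 2-fold or more, and 3 higher (52% and 12%; median -0.40), 1 higher without either Hira-null replicate and 0 with the GC correction, though Krt8 and Krt18 count in both lists and the defining factor Cdx2 reached 0.497 FPKM at most. Eomes counts in both lists too. Of the markers fixed for trophoblast, Elf5 reached 0.369 FPKM at most. Plet1 overlapped between the lines, with 10.01 and 8.784 FPKM in WT against 8.438 and 11.41 FPKM in Hira-null. Gata3, Krt7 and Hand1 read lower in both Hira-null libraries than in both WT libraries. Peg10, an imprinted gene needed for the placenta, read 261 and 275 FPKM in WT against 76.2 and 75.5 FPKM in Hira-null (log2 change -1.80, SE 0.07, adjusted p = 2.02e-07). Hand1, a factor of trophoblast giant cells and mesoderm on chromosome 11, read 21.04 and 22.6 FPKM in WT against 4.07 and 4.26 FPKM in Hira-null (log2 change -2.14, SE 0.13, adjusted p = 4.08e-06). The higher genes were Furin, Eomes and Ets2, with log2 changes of 0.47, 0.64 and 0.30 (adjusted p = 0.00676, 0.00741 and 0.0414). With the GC correction the adjusted p was 0.183, 0.0596 and 0.0647. The Furin call was lost without Hira-null replicate 1 (adjusted p = 0.0772), that of Eomes without Hira-null replicate 2 (0.0501) and that of Ets2 without any single library (0.0627 to 0.192). Among 28 contractile and smooth muscle genes, 13 were lower and 3 higher (46.4% and 10.7%; median -0.28). Tagln, which binds actin in smooth muscle and in spreading cells, read 89 and 82.8 FPKM in WT against 27.6 and 31.4 FPKM in Hira-null (log2 change -1.51, SE 0.08, adjusted p = 2.30e-06). The tropomyosins Tpm4 (chromosome 8) and Tpm1 had log2 changes of -1.05 (adjusted p = 5.57e-06) and -1.03 (adjusted p = 1.14e-05), and the non-muscle myosin Myh10 (chromosome 11) -0.94 (adjusted p = 3.42e-05). Cardiac troponin T (Tnnt2) reached 0.698 FPKM at most.

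Germline and meiosis genes moved in the other direction. Of 44 listed 42 were tested, and 29 were higher, 18 by 2-fold or more, with 2 lower (69% and 4.76%, against 23.3% and 22.2% of all genes; median 0.79). Outside chromosomes 8 and 11, 27 of 36 were higher and 1 lower, and with the GC correction 30 of 42 were higher with a median of 0.96. Their summed level was 523 and 524 FPKM in WT and 1115 and 1143 FPKM in Hira-null. Dazl, an RNA-binding protein that licenses germ cells, read 11.7 and 19.05 FPKM in WT against 79.7 and 78.5 FPKM in Hira-null (log2 change 2.33, SE 0.20, adjusted p = 2.26e-05). Stra8, which starts meiosis in response to retinoic acid, read 6.16 and 8.22 FPKM in WT against 37.5 and 42.9 FPKM in Hira-null (log2 change 2.34, SE 0.15, adjusted p = 6.53e-06). Stag3, a cohesin subunit of meiotic chromosomes, read 34.03 and 34.1 FPKM in WT against 91.5 and 86.2 FPKM in Hira-null (log2 change 1.36, SE 0.10, adjusted p = 9.53e-06). In all 3 genes both Hira-null libraries lay well above both WT libraries.

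Sycp3, a protein of the synaptonemal complex that holds paired chromosomes, read 2.301 and 4.22 FPKM in WT against 18.8 and 17.04 FPKM in Hira-null (log2 change 2.19, SE 0.29, adjusted p = 2.79e-04), and its exons overlap those of Chpt1 on the other strand. Mael and Mov10l1 serve the pathway of small RNAs that silences transposons, and Mael read 19.2 and 22.9 FPKM in WT against 76.9 and 77.7 FPKM in Hira-null (log2 change 1.84, SE 0.14, adjusted p = 1.35e-05). Taf7l, a germ cell form of a general transcription factor subunit, read 4.704 and 5.57 FPKM in WT against 25.4 and 26.1 FPKM in Hira-null (log2 change 2.13, SE 0.21, adjusted p = 4.73e-05). The testis surface protein Tex101 was counted by 14 and 17 fragments in WT and 104 and 137 in Hira-null (log2 change 2.45, adjusted p = 3.37e-05). Ctcfl, the germ cell paralogue of the insulator protein CTCF, was not in the list and rose from 0.802 and 1.36 to 10.5 and 10.5 FPKM (log2 change 2.48, SE 0.22, adjusted p = 3.31e-05). Ctcfl passed the filter only with the Hira-null libraries, where it was high, so its call is a description. Retrocopies and paralogues were also high: Tuba3a, a testis tubulin, read 43.9 and 38.8 FPKM in WT against 153 and 159.8 FPKM in Hira-null (log2 change 1.90, SE 0.12, adjusted p = 4.27e-06), and Rpl10l, a retrocopy of Rpl10, 32.7 and 32.5 FPKM in WT against 94.2 and 94.01 FPKM in Hira-null (log2 change 1.50, SE 0.10, adjusted p = 7.67e-06), and reads of such near copies can be assigned to the wrong gene. The genes that were lower were Tex14 (chromosome 11; log2 change -0.65, SE 0.13, adjusted p = 0.00311) and Ddx25 (log2 change -0.97, SE 0.22, adjusted p = 0.00606).

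The promoters of 26 of the 29 germline genes that rose were matched in RefSeq (GRCm38.p6), taking the first start listed for each gene. Of the genes tested only 9965 (79.5%) had a window, too few for a check over all of them, so their shares are given as a description beside those over all genes. The letters CACGTG, an E-box whose reverse complement is itself, occurred in 10 of these windows of 300 bases (38.5%, against 10.6% of the windows of genes tested and 7.25% of 27009 windows of all genes). The letters GCGGGA on either strand, a core of E2F sites, occurred in 12 (46.2%, against 37.4% of genes tested and 20% of all genes). Both occurred in 7 (26.9%, against 4.13% and 2.05%). The median ratio of observed to expected CpG was 0.688 in the 26 windows, below the 0.773 of genes tested and above the 0.389 of all windows. No match says only that the letters are absent from the window. These motifs were chosen with the results known, and binding was not measured in these files. The windows of 4 of the genes follow, 5′ to 3′, with these motifs in capitals, to show a promoter with both motifs (Mael and Sycp3), with the E-box alone (Taf7l) and with neither (Dazl). They lie at chr1:166238695-166238994 (minus strand), chr10:88459337-88459636 (plus strand), chrX:134476441-134476740 (minus strand) and chr17:50293571-50293870 (minus strand).
Mael: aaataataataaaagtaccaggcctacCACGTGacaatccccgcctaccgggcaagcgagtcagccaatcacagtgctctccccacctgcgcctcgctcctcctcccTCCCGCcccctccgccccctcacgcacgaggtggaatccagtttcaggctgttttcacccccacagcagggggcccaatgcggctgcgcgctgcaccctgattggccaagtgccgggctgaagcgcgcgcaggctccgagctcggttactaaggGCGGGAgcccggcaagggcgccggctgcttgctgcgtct
Sycp3: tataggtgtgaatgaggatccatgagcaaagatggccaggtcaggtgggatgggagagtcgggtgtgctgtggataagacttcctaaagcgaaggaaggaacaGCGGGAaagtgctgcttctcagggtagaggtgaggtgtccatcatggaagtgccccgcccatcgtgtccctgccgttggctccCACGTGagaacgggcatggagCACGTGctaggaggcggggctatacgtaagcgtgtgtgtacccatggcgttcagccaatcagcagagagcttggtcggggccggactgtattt
Taf7l: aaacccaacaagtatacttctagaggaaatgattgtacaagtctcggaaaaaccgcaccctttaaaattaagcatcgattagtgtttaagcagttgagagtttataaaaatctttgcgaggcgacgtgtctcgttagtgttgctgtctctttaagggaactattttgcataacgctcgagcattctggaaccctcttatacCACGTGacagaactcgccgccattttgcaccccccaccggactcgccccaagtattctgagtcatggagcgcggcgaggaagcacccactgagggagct
Dazl: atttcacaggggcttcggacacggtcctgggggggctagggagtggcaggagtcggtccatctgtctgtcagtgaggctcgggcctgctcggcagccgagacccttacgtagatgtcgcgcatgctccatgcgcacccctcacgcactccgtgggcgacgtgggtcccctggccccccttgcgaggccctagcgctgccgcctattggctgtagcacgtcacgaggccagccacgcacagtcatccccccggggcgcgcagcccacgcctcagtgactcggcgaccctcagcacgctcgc

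**Figure D3:**
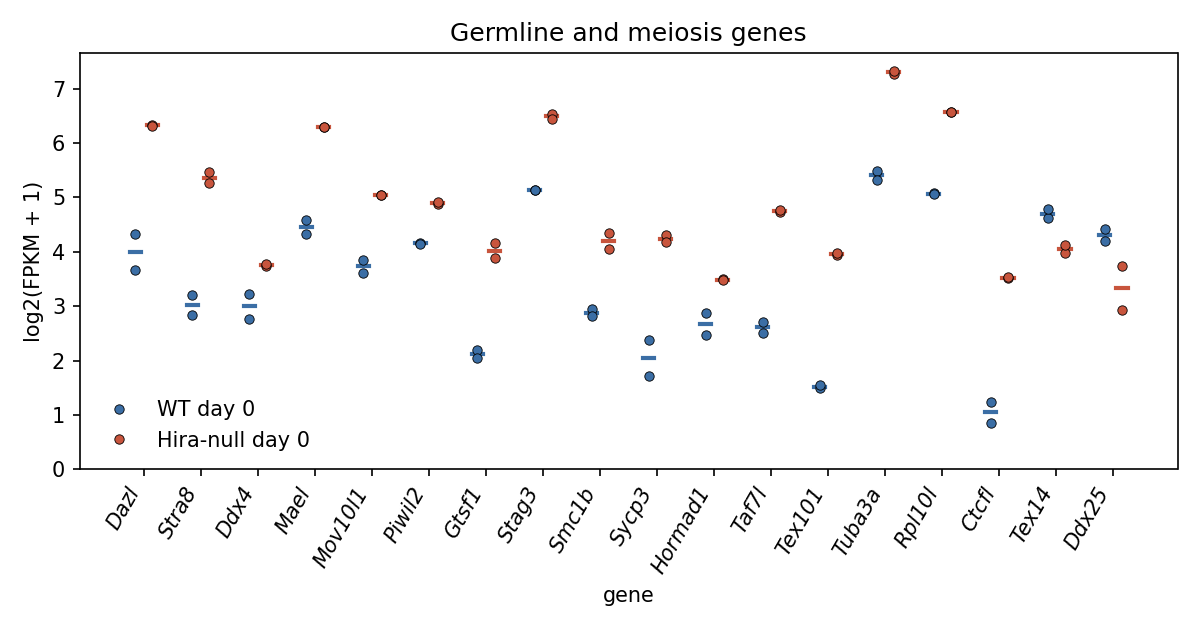
Values of germline and meiosis genes as log2(FPKM + 1) (vertical axis) by gene (horizontal axis) in the 2 WT and 2 Hira-null day 0 libraries (points), with bars at the means. Hira-null lies above WT for every gene shown but Tex14 and Ddx25, which were the 2 lower genes of the list.

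The core of the pluripotency network stayed on, with changes in both directions. Of 39 naive pluripotency genes tested 12 were higher and 11 lower (30.8% and 28.2%), 7 lower without Hira-null replicate 2. Their median was 0.03, and on the other side of 0 (-0.004) when libraries were scaled to a common median. Pou5f1, which encodes OCT4, read 641 and 601 FPKM in WT against 904 and 911 FPKM in Hira-null (log2 change 0.55, SE 0.07, adjusted p = 2.94e-04). Nanog read 252 and 271 FPKM in WT against 303 and 307 FPKM in Hira-null (log2 change 0.22, SE 0.07, adjusted p = 0.0278), a difference that did not pass the test without WT replicate 1 (adjusted p = 0.144), Hira-null replicate 1 (adjusted p = 0.125) or Hira-null replicate 2 (adjusted p = 0.148), nor with libraries scaled to a common median (adjusted p = 0.0554). Sox2 read 203 and 224 FPKM in WT against 225 and 227 FPKM in Hira-null (adjusted p = 0.36) and Esrrb 133 and 136 FPKM in WT against 124 and 119 FPKM in Hira-null (adjusted p = 0.128), neither past the test. Klf4 had a log2 change of 0.35 (adjusted p = 0.00848), lost without Hira-null replicate 2 (adjusted p = 0.0763) and with the GC correction (0.10, adjusted p = 0.483). The transcription factors Tbx3 and Prdm14 rose by 1.04 and 1.06 on the log2 scale (adjusted p = 1.89e-05 and 3.23e-04). Dppa5a, an RNA-binding protein of early embryos, read 1131 and 933 FPKM in WT against 2352 and 2358 FPKM in Hira-null (log2 change 1.20, SE 0.09, adjusted p = 1.49e-05).

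The naive genes that fell with the smallest adjusted p were Zfp42, Gbx2, Il6st and Dppa3. Zfp42 (REX1), on chromosome 8, read 471 and 444 FPKM in WT against 170.1 and 188 FPKM in Hira-null (log2 change -1.35, SE 0.08, adjusted p = 3.01e-06). Gbx2, a target of LIF signalling, read 26.01 and 19.4 FPKM in WT against 5.41 and 5.84 FPKM in Hira-null (log2 change -1.83, SE 0.17, adjusted p = 3.28e-05), and Dppa3, a protein of the egg and early embryo, 11.6 and 18.7 FPKM in WT against 3.74 and 3.06 FPKM in Hira-null (log2 change -1.85, SE 0.27, adjusted p = 4.79e-04). Il6st, the signalling subunit of the LIF receptor, had a log2 change of -0.67 (adjusted p = 2.88e-04). Of 31 formative and primed pluripotency genes 14 were lower and 6 higher (45.2% and 19.4%; median -0.21), 8 lower without Hira-null replicate 2. Spry4, a feedback inhibitor of FGF signalling, read 66.4 and 73.98 FPKM in WT against 25.2 and 27.03 FPKM in Hira-null (log2 change -1.39, SE 0.09, adjusted p = 7.70e-06), and Sall1 (chromosome 8) and Enpp3 had log2 changes of -1.02 and -1.66 (adjusted p = 3.54e-05 and 1.36e-05). Etv5 and Zic2, of the same list, were higher by 0.60 and 0.77 on the log2 scale (adjusted p = 2.96e-04 and 0.00108).

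FGF signalling drives mESCs out of the naive state and into primitive endoderm. Of 31 genes of the pathway tested 15 were lower and 7 higher (48.4% and 22.6%; median -0.35), 10 lower outside chromosomes 8 and 11 and 9 without Hira-null replicate 1. The lower genes included Spry2, Spry4, Spred1, Dusp4 (chromosome 8) and Dusp6, which damp the pathway. Etv5, given above and also a member of this list, was higher. Fgf4, the ligand that mESCs make, was higher (log2 change 0.44, SE 0.08, adjusted p = 0.00158), as was the adaptor Frs3 (log2 change 1.39, SE 0.14, adjusted p = 5.69e-05), whose exons overlap other gene models. The receptor Fgfr2 read 3.05 and 4.295 FPKM in WT against 1.36 and 1.13 FPKM in Hira-null (log2 change -1.05, SE 0.16, adjusted p = 5.53e-04). Genes of the state resembling the embryo after its first division (2-cell-like genes) were higher for 10 of 23 tested and lower for 2 (43.5% and 8.7%; median 0.50), 6 higher without Hira-null replicate 1 and 6 with 0.1 FPKM added in place of 1. The count lower was 1 without Hira-null replicate 2 and 1 outside chromosomes 8 and 11. With genes under 5 FPKM left out 5 were higher and 2 lower. The summed level of the 23 genes did not rise, at 234.6 and 249.9 FPKM in WT and 222.6 and 201.6 FPKM in Hira-null. Of the genes that define the 2-cell-like state Zscan4d did not pass the test, with 12.8 and 12.95 FPKM in WT against 12.8 and 11.7 FPKM in Hira-null (adjusted p = 0.823), and Dux was under the filter. Usp17le read 5.84 and 3.96 FPKM in WT against 16.4 and 13.1 FPKM in Hira-null (log2 change 1.43, SE 0.20, adjusted p = 4.35e-04) and Tdpoz4 0.6103 and 1.17 FPKM in WT against 4.84 and 4.19 FPKM in Hira-null (log2 change 1.56, SE 0.23, adjusted p = 4.94e-04), both members of families of near copies between which reads cannot be told apart. Tdpoz4 passed the filter only with the Hira-null libraries, so its call is a description. The autophagy receptor Calcoco2, on chromosome 11, fell by 1.88 on the log2 scale (adjusted p = 1.35e-05).

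A list of the HIRA complex with other histone chaperones and remodellers, such as Chaf1a, Hjurp and Srcap, gave counts near the background. Of its 22 genes, 5 were higher and 6, with Hira, lower (22.7% and 27.3%), and Hira alone changed by 2-fold or more. Of the HIRA complex itself Hira, Ubn1 and Asf1a were called, and Ubn2 and Cabin1 were not. Without WT replicate 1, 3 were higher, and 2 were higher and 3 lower when either Hira-null replicate was left out. Ubn1 read 8.798 and 10.2 FPKM in WT against 14.1 and 13.98 FPKM in Hira-null (log2 change 0.52, SE 0.11, adjusted p = 0.00403). Ubn2, Cabin1, Daxx and Atrx had log2 changes of -0.01, -0.06, 0.08 and 0.01 and did not pass the test (adjusted p = 0.976, 0.669, 0.601 and 0.957). The signs of Ubn2, Daxx and Atrx turned under other settings, and Cabin1 fell with the GC correction (-0.29, adjusted p = 0.0276). Asf1a read 24.2 and 23 FPKM in WT against 15.8 and 17.6 FPKM in Hira-null (log2 change -0.47, SE 0.17, adjusted p = 0.0448), and this call was lost without any one of the 4 libraries, with adjusted p = 0.124 and 0.0816 without WT replicates 1 and 2 and 0.231 and 0.111 without Hira-null replicates 1 and 2. Among 13 variant histone genes, 6 were higher and 4 lower (46.2% and 30.8%), with 1 lower without Hira-null replicate 1, 2 lower without any other library, and 2 lower outside chromosomes 8 and 11 or with the GC correction.

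H3.3 is encoded by H3f3a and H3f3b, which differ in sequence but give the same protein. H3f3a read 46.97 and 50.9 FPKM in WT against 66.2 and 67.7 FPKM in Hira-null (log2 change 0.44, SE 0.08, adjusted p = 0.00209). H3f3b, on chromosome 11 and the more abundant per length, read 451 and 479.7 FPKM in WT against 389.8 and 384 FPKM in Hira-null (log2 change -0.26, SE 0.07, adjusted p = 0.0157), and the difference was -0.02 with the GC correction (adjusted p = 0.858) and not past the test without WT replicate 2 (adjusted p = 0.0783), Hira-null replicate 1 (adjusted p = 0.0915) or Hira-null replicate 2 (adjusted p = 0.113). The linker histone H1fx read 72.02 and 67.6 FPKM in WT against 186 and 191 FPKM in Hira-null (log2 change 1.42, SE 0.09, adjusted p = 4.63e-06), and the damage-linked variant H2afx 469.6 and 409.8 FPKM in WT against 819 and 817 FPKM in Hira-null (log2 change 0.90, SE 0.08, adjusted p = 3.44e-05). Cenpa, the centromeric variant, rose by 0.97 and H1f0 by 0.81 on the log2 scale (adjusted p = 1.32e-04 and 5.96e-05). Of 19 genes near Hira on chromosome 16, Hira included, 6 were higher and 6 lower, 3 lower without Hira-null replicate 2 and 3 higher with the GC correction. Dgcr8 and Trmt2a, which overlap each other, fell by 1.13 and 0.89 on the log2 scale, and Slc25a1 and Arvcf rose by 1.04 and 1.09 (adjusted p = 8.08e-05, 2.90e-04, 2.63e-05 and 2.67e-04), so the neighbourhood held changes in both directions.

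Genes of metabolism and protein synthesis moved in groups. Of 42 glycolysis and hypoxia genes 27 were higher and 4 lower (64.3% and 9.52%; median 0.38), the 4 lower becoming 2 without WT replicate 1 or outside chromosomes 8 and 11 and 1 without either Hira-null replicate. Aldoa, aldolase A, read 1422 and 1402 FPKM in WT against 2608 and 2589 FPKM in Hira-null (log2 change 0.88, SE 0.08, adjusted p = 3.04e-05), and Ddit4, an inhibitor of mTOR that responds to stress and low oxygen, 138 and 134 FPKM in WT against 336 and 319 FPKM in Hira-null (log2 change 1.26, SE 0.07, adjusted p = 1.74e-06). Eno2 and Ndrg1 rose by 1.40 and 1.02 on the log2 scale (adjusted p = 5.28e-05 and 9.68e-05), while Kdm3a, an oxygen-dependent histone demethylase, fell by 0.85 (adjusted p = 5.90e-05). Of 55 cytosolic ribosomal protein genes 38 were higher and 0 lower (69.1% and 0%), with a median of 0.34, and the summed level of the list was 45230 and 42510 FPKM in WT and 56930 and 57140 FPKM in Hira-null. By limma 0 were lower, by voom on recovered fragments 0, without WT replicate 2 1, and with the GC correction 3, and at an unadjusted p under 0.05 2 were. Such genes share reads with many processed copies.

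In cholesterol synthesis 15 of 29 genes were higher and 2 lower (51.7% and 6.9%; median 0.39), 4 lower with the GC correction and 0 outside chromosomes 8 and 11. Insig1, which holds back the sterol sensor, read 26.01 and 28.8 FPKM in WT against 65.2 and 63.4 FPKM in Hira-null (log2 change 1.20, SE 0.09, adjusted p = 1.38e-05), and the regulator Srebf2 53.9 and 55.7 FPKM in WT against 100.2 and 96.2 FPKM in Hira-null (log2 change 0.83, SE 0.09, adjusted p = 9.25e-05). The lower genes, Fasn and Acaca, make fatty acids and both lie on chromosome 11 (log2 change -0.69 and -0.78). Amino acid stress and one-carbon genes ran the other way, with 15 of 32 lower and 6 higher (46.9% and 18.8%; median -0.27). Atf4, the factor of the integrated stress response, read 94.3 and 89.8 FPKM in WT against 37.7 and 43.2 FPKM in Hira-null (log2 change -1.17, SE 0.09, adjusted p = 1.20e-05), and Chac1, its target that degrades glutathione, 11.4 and 11.6 FPKM in WT against 1.95 and 2.46 FPKM in Hira-null (log2 change -1.97, SE 0.17, adjusted p = 2.28e-05). Trib3 and Mthfd2, further ATF4 targets, had log2 changes of -1.02 and -0.81 (adjusted p = 8.08e-05 and 3.94e-05). Pck2, of the same list, rose (log2 change 1.26, SE 0.14, adjusted p = 1.09e-04), so the list did not move as one.

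Cell cycle inhibitors and p53 targets were higher for 18 of 33 genes and lower for 6 (54.5% and 18.2%; median 0.38), 10 higher without Hira-null replicate 1. Cdkn1a (p21) read 37.02 and 35.5 FPKM in WT against 65.9 and 70.8 FPKM in Hira-null (log2 change 0.90, SE 0.07, adjusted p = 1.76e-05), and Bbc3 (PUMA), which triggers cell death, 19.11 and 15.9 FPKM in WT against 37.9 and 39.3 FPKM in Hira-null (log2 change 1.10, SE 0.11, adjusted p = 6.88e-05). Trp53 itself, on chromosome 11, read 205 and 199.7 FPKM in WT against 122 and 124 FPKM in Hira-null (log2 change -0.72, SE 0.07, adjusted p = 5.20e-05). Cdkn2a fell by 0.96 (adjusted p = 2.16e-04). Among 53 genes of DNA replication and the cell cycle 12 were higher and 18 lower (22.6% and 34%), 9 lower outside chromosomes 8 and 11, 10 without Hira-null replicate 1 and 11 without Hira-null replicate 2. Of 52 DNA repair genes 6 were higher and 15 lower (11.5% and 28.8%), 9 lower outside chromosomes 8 and 11, 8 with the GC correction, and 7 to 9 with any 1 library left out.

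Immediate early and heat shock genes moved both ways: 11 of 32 were higher and 12 lower (34.4% and 37.5%). Fos rose from 2.85 and 4.58 FPKM in WT to 32.8 and 33.5 FPKM in Hira-null (log2 change 2.88, SE 0.16, adjusted p = 2.46e-06), and Fosb and Jun rose by 1.62 and 0.84 on the log2 scale (adjusted p = 2.62e-05 and 2.67e-04). Myc, a driver of growth and a target of LIF, read 23.05 and 20.8 FPKM in WT against 3.82 and 3.65 FPKM in Hira-null (log2 change -2.27, SE 0.14, adjusted p = 4.27e-06). The inducible chaperone Hspa1b read 2.13 and 3.88 FPKM in WT against 11.97 and 10.6 FPKM in Hira-null (log2 change 1.65, SE 0.20, adjusted p = 1.90e-04), while the constitutive Hspa8 and Hsp90ab1 fell by 0.66 and 0.52 (adjusted p = 3.95e-05 and 1.24e-04). Ccnd2, a cyclin of the G1 phase, was among the 15 largest falls, with 16.6 and 13.2 FPKM in WT against 1.89 and 1.62 FPKM in Hira-null (log2 change -2.53, SE 0.11, adjusted p = 6.66e-07).

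Imprinted genes are read from only the maternal or the paternal copy, and 9 of 35 tested were higher and 11 lower (25.7% and 31.4%; median -0.22). H19, the growth-limiting RNA of the maternal copy on chromosome 7, had the largest fall of all, with 579.9 and 589 FPKM in WT against 20.3 and 20.8 FPKM in Hira-null (log2 change -4.76, SE 0.07, adjusted p = 3.70e-10). Igf2, its neighbour expressed from the other copy, read 10.5 and 12.2 FPKM in WT against 15.2 and 18.9 FPKM in Hira-null (log2 change 0.55, SE 0.10, adjusted p = 0.0022; not past the test with the GC correction, adjusted p = 0.0574). Nnat, Mest and Plagl1, expressed from the paternal copy, fell by 2.11, 1.01 and 1.28 on the log2 scale (adjusted p = 9.71e-07, 2.50e-05 and 6.44e-05). Grb10, a brake on growth factor receptors, rose and lies on chromosome 11, with 29.5 and 31.4 FPKM in WT against 85.1 and 83.3 FPKM in Hira-null (log2 change 1.44, SE 0.08, adjusted p = 2.45e-06), and its neighbour Ddc, on the same chromosome, fell (log2 change -1.05, SE 0.14, adjusted p = 3.52e-04). Y-linked genes, present in both lines, read lower for Ddx3y (-1.35), Uty (-0.87) and Eif2s3y (-0.39) and higher for Uba1y (1.74) and Zfy1 (1.69), of 6 tested, and such genes share sequence with relatives on the X. Hox genes were nearly silent: 5 of 38 passed the filter and all 5 were higher, the highest being Hoxc13 with 0.391 and 1.02 FPKM in WT against 5.56 and 6.92 FPKM in Hira-null (log2 change 2.10, SE 0.23, adjusted p = 1.04e-04), and since such genes pass through the group where they are high, that count is a description.

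Many genes of tissues that arise later stayed under the filter. Of 19 cardiac transcription factors tested 7 were higher and 5 lower (36.8% and 26.3%), 4 higher without WT replicate 2 or either Hira-null replicate and 3 lower outside chromosomes 8 and 11. Of 27 neuronal genes 11 were higher and 7 lower (40.7% and 25.9%), 7 higher without Hira-null replicate 2 and 3 lower without Hira-null replicate 1. Of 23 endothelial genes 4 were higher and 7 lower (17.4% and 30.4%), 2 higher without either Hira-null replicate or with the GC correction. Of 18 primitive streak genes 7 were higher and 8 lower (38.9% and 44.4%), 5 lower without Hira-null replicate 1 and 4 higher with the GC correction. The 15 neural progenitor genes gave 6 higher and 3 lower (40% and 20%), or 3 higher and 5 lower with the GC correction. The 23 fibroblast genes gave 8 and 8 (34.8% each) and the 14 blood genes 5 and 2 (35.7% and 14.3%). Some genes given above count again in these lists. Among the lower ones, Gata4, Gata6 and Hand1 are in the cardiac list and Sox7 and Sox17 in the endothelial list. Foxa2 and Hand1 are in the primitive streak list and Gbx2 in the neural progenitor list. Among the higher ones, Tbx3 is in the cardiac, Eomes in the primitive streak and Zic2 in the neural progenitor list.

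Signalling, chromatin and respiratory chain lists were counted in the same way. The WNT list had 8 higher and 9 lower of 36 (22.2% and 25%), with 5 higher without Hira-null replicate 1 and 5 lower outside chromosomes 8 and 11. BMP, NODAL and TGF-beta genes had 11 higher and 13 lower of 44 (25% and 29.5%), 8 lower without Hira-null replicate 2. Notch genes had 8 and 3 of 23 (34.8% and 13%), 5 higher without WT replicate 2 or Hira-null replicate 2, and 5 higher and 5 lower with the GC correction. Retinoic acid genes had 6 and 2 of 14 (42.9% and 14.3%), 1 lower without WT replicate 2 or either Hira-null replicate. DNA methylation genes had 3 and 6 of 24 (12.5% and 25%), 3 lower without Hira-null replicate 2. Polycomb and trithorax genes had 6 and 8 of 35 (17.1% and 22.9%), 3 higher without Hira-null replicate 1, 5 lower without WT replicate 2 and 4 lower without Hira-null replicate 2. BAF remodeller subunits had 4 and 7 of 23 (17.4% and 30.4%), 4 lower outside chromosomes 8 and 11, and interferon-stimulated genes 6 and 5 of 24 (25% and 20.8%), 3 lower without WT replicate 1 or Hira-null replicate 1 or outside chromosomes 8 and 11, and 2 lower without Hira-null replicate 2. Subunits of the respiratory chain had 16 and 5 of 49 (32.7% and 10.2%). Their higher count was 8 without WT replicate 2, 6 without Hira-null replicate 1 and 5 without Hira-null replicate 2, and 10 with a common median. Their lower count was 3 without WT replicate 1, without Hira-null replicate 2 or outside chromosomes 8 and 11, and 2 without Hira-null replicate 1. Of 35 protocadherins 3 passed the filter and limma called 0, as did voom on recovered fragments, and 1 was higher at an unadjusted p under 0.05. Without Hira-null replicate 2, 1 was called higher.

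**Figure D4:**
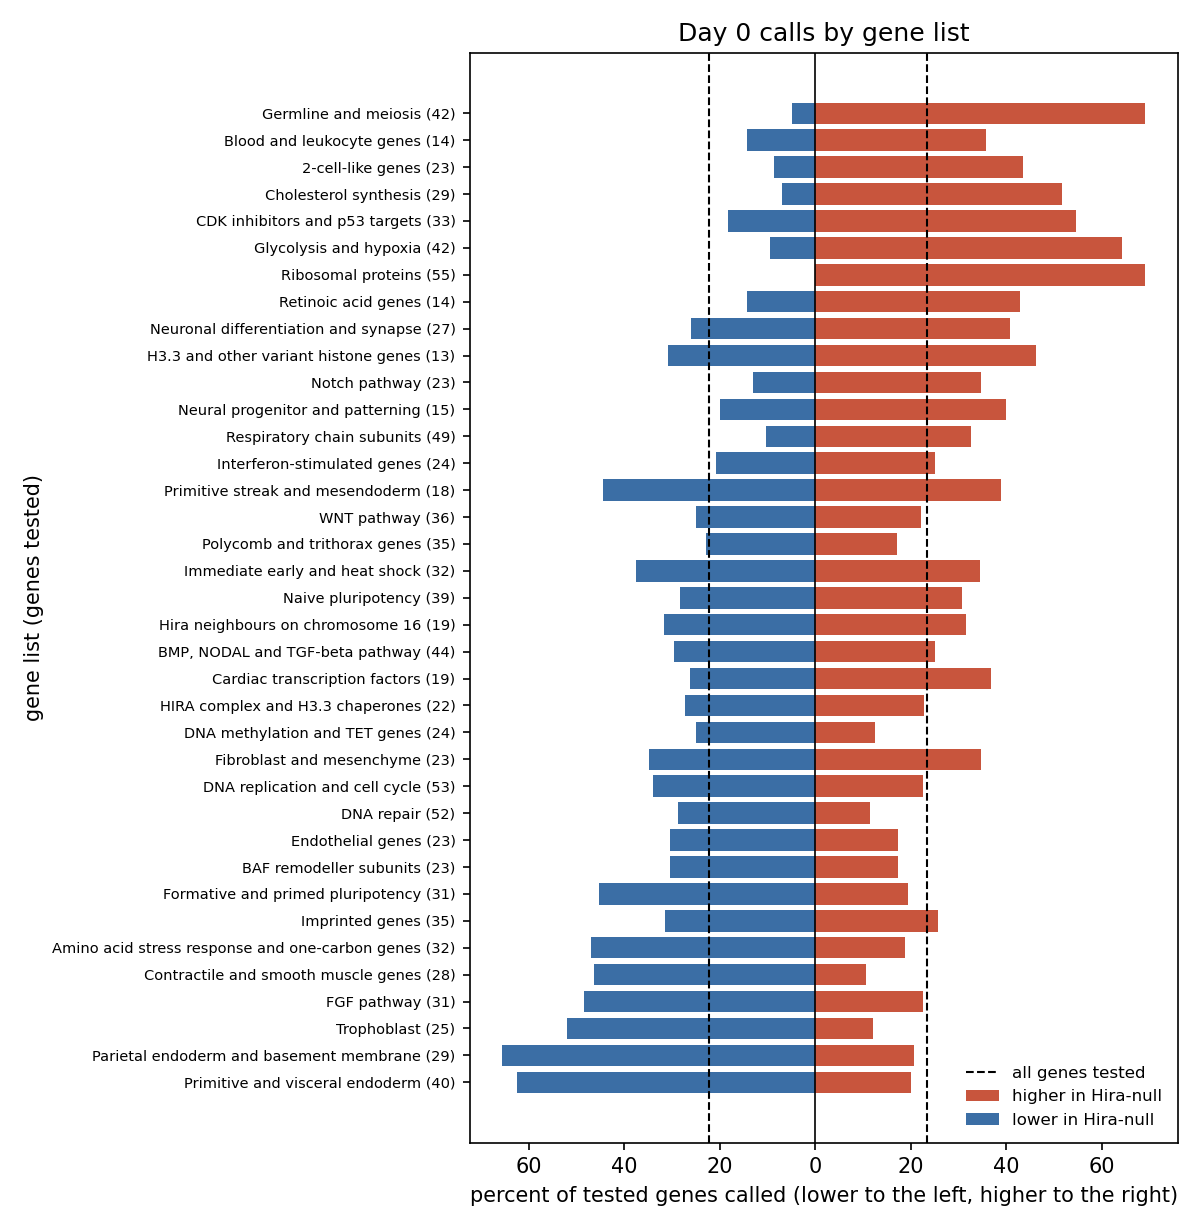
Percent of the tested genes of each list (vertical axis, number tested in parentheses, lists with 10 or more) that were called higher in Hira-null (bars to the right) or lower (bars to the left) at day 0, with dashed lines at the 23.3% and 22.2% of all genes tested. Germline and ribosomal protein genes reach 69% and 69.1% higher, and the parietal and primitive endoderm lists 65.5% and 62.5% lower.

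Apart from the gene groups, the 15 largest rises included genes of several tissues. Micall2, which links vesicles to the actin cytoskeleton, rose most, with 0.853 and 1.31 FPKM in WT against 15.6 and 13.9 FPKM in Hira-null (log2 change 2.93, SE 0.17, adjusted p = 2.75e-06). Ndufa4l2, induced by low oxygen, read 19.7 and 26.6 FPKM in WT against 129 and 120.1 FPKM in Hira-null (log2 change 2.39, SE 0.23, adjusted p = 4.13e-05), and its exons overlap those of Shmt2. Fbxo2, a ubiquitin ligase subunit that binds sugars, read 9.91 and 10.5 FPKM in WT against 56.2 and 52.2 FPKM in Hira-null (log2 change 2.30, SE 0.23, adjusted p = 5.03e-05). Igsf21, Cd37, Gm6880, Cited4, Nags (chromosome 11) and Crb3 also rose, by 2.43, 2.41, 2.23, 2.21, 2.21 and 2.15 on the log2 scale. Micall2 and Gm6880 passed the filter only with the Hira-null libraries, where they were high, so both calls are a description. The largest falls outside the groups above included Hkdc1, a hexokinase counted by 201 and 220 fragments in WT and 6 and 1 in Hira-null. They also included the heparan sulfate enzyme Hs3st1 (-2.92), the prostaglandin carrier Slco2a1 (-2.58), the guidance cue Ntn1 on chromosome 11 (-2.56), and tissue factor F3 (-2.53). Fxyd3, an ion pump regulator whose exons overlap Lgi4, was counted by 20 and 25 fragments in WT and 0 and 1 in Hira-null, so that its fitted fold depends on the added 1 FPKM. Hkdc1, Hs3st1 and Fxyd3 passed the filter through the WT libraries alone, so their calls are a description. All 30 genes with the largest changes kept both libraries of one line above both of the other, as the rule that named them required.

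The genotype difference of the stem cells was set beside that of the day 15 cultures, in which the label was not matched by Hira: it read 15.8 and 15.5 FPKM in WT against 16.7 and 19.8 FPKM in Hira-null (day 15 log2 change 0.20, adjusted p = 0.175). Of the 12542 genes 2067 were higher (16.5%) and 2316 lower (18.5%) in Hira-null at day 15, and the genotype effect differed between the days for 4253 genes (33.9%) by the interaction term of the same fit. Of the 371 genes lower by 2-fold or more at day 0, 202 were also lower at day 15 (54.4%) and 35 higher (9.43%), and of the 665 genes that were higher by 2-fold or more, 167 were higher (25.1%) and 86 lower (12.9%). The effect differed between days for 260 of the former (70.1%) and 503 of the latter (75.6%). Both sets were chosen by their day 0 change, which enters that difference, so these shares are a description. The calls of both days also share an estimate of the spread of each gene. Across all genes the fold changes of both days correlated at 0.226 (Pearson) and 0.205 (Spearman), a description over 12542 genes that share a clone and the chromosome 8 and 11 shift.

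Gene groups differed in how far their day 0 changes were found at day 15. Over all genes tested the effect differed between the days, in either direction, for 33.9%. At day 15 16.5% of all genes were higher and 18.5% lower. The lists named here stood out by their day 0 change, which enters the difference, so the counts that follow are a description. For 25 of the 42 germline genes the genotype effect was lower at day 15 than at day 0 past the interaction test, and for none was it higher, and at day 15 3 of them were higher and 11 lower. Stra8 read 4.304 and 4.34 FPKM in WT against 0.617 and 0.722 FPKM in Hira-null at day 15, a difference between the effects of -4.01 on the log2 scale (adjusted p = 9.18e-06). Of 55 ribosomal protein genes the effect was lower at day 15 for 50 and higher for 1, with 2 higher and 40 lower at day 15. For glycolysis and hypoxia genes it was lower for 30 of 42 and higher for 1. In the primitive and visceral endoderm list lower genes outnumbered higher ones at both days, with 31 of 40 lower and 4 higher at day 15 (median -0.99). Its members still differed between days in both directions, the effect being higher at day 15 for 11 and lower for 15. Gata4 was lower at day 15 too (day 15 log2 change -2.41, adjusted p = 4.67e-06), with a difference between the effects of 0.18 on the log2 scale (adjusted p = 0.517), while Dab2 did not pass the test at day 15 (day 15 log2 change -0.35, adjusted p = 0.0527) and Apoa1 turned (day 15 log2 change -3.77, adjusted p = 7.19e-06). Ntn1 turned from a fall to a rise, with 46.2 and 40.3 FPKM in WT against 250.4 and 274 FPKM in Hira-null at day 15 and a difference between the effects of 5.14 on the log2 scale (adjusted p = 3.50e-06). Ccnd2 read 118 and 116 FPKM in WT against 117 and 118 FPKM in Hira-null at day 15 (day 15 log2 change 0.00, adjusted p = 0.981).

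**Figure D5:**
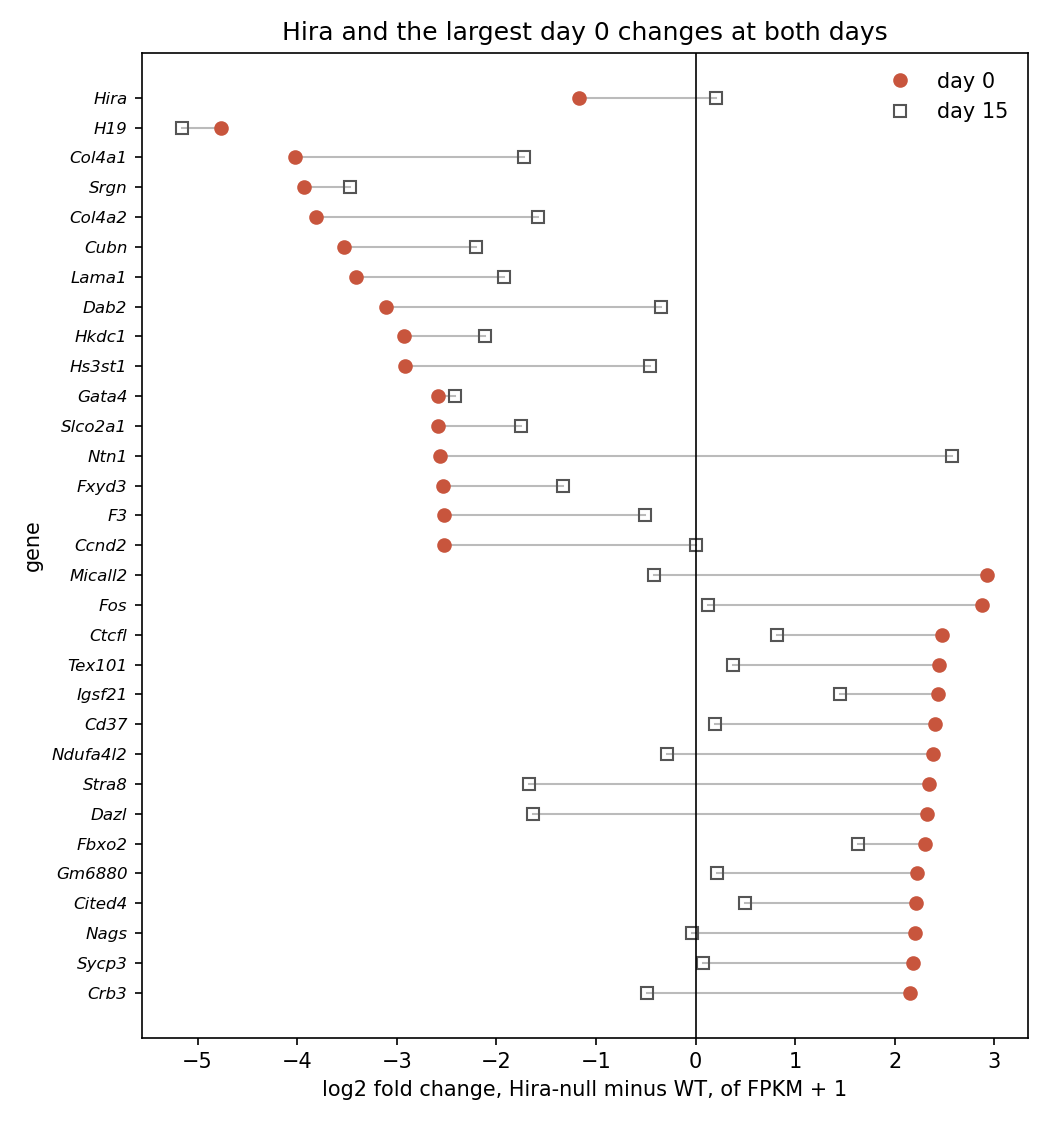
Log2 fold change of Hira-null over WT (horizontal axis, log2(FPKM + 1) scale) at day 0 (filled circles) and day 15 (open squares) for Hira and the 15 largest falls and 15 largest rises at day 0 (vertical axis). H19, Srgn and Gata4 lie below -2.4 at both days, Ntn1 lies at -2.56 and 2.57, and Stra8 and Dazl lie above 2 at day 0 and below -1.6 at day 15.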

How the data were processed

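Stranded mRNA libraries were sequenced as paired ends from 2 biological samples each of WT and Hira-null undifferentiated mESCs and of both lines after 15 days of differentiation. The authors deposited FPKM values per gene for all 8 libraries, and the submitters' processing notes name mm9, Bowtie 0.12.2 and DESeq2 1.6.3. The counter, and whether strand was used, are not given in the sources used here. The deposited tables of the authors' own comparisons (mean counts, fold changes and p-values at each time) were not used, since they hold their results and not values per library. No column of values lacked a sample.

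FPKM values were whole multiples of a step for each gene and library (100% of values within 0.1 fragment), so fragments were recovered. Totals were 6897009 to 8792091 at day 0 and up to 11088583 over the 8 libraries. Of 24421 genes 5287 were 0 in all libraries, and 27 entries with a date in place of a symbol were kept but not named. WT replicates differed by a chi-square of 3.985 per degree of freedom and Hira-null replicates by 2.891, more than counting error gives, so each library counted as a sample.

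The main test was limma 3.58.1 (R 4.3.3) on log2(FPKM + 1) with 4 group means, a weight per day (1.01 and 0.99), 4 residual and 5.88 prior degrees of freedom and a Benjamini-Hochberg threshold of 0.05 over the 12542 genes. It stands in for the count model of the study, since the deposited values are FPKM, and a model of the recovered fragments (voom) was an alternative. With 2 libraries a group an exact permutation test cannot go below p = 0.333, so none was run, and p-values rest on the spread shared across genes. The code was tested on simulated data. Tables and figures used Python 3.11.15, pandas 2.3.3, numpy 2.4.6 and matplotlib 3.10.9.

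Gene positions and transcript GC came from GENCODE on NCBIM37, the assembly of mm9. RefSeq promoter windows on GRCm38.p6 served only for sequence and were matched by name or identifier.

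Named genes were Hira, the 15 largest changes in each direction (adjusted p of 0.05 or less, libraries not overlapping, mean of 5 FPKM or more in the higher group, no small RNA and no date), up to 4 called members of a list in each direction by adjusted p, and fixed pluripotency, HIRA complex, histone and marker genes. Other genes named were chosen after their values were seen. The members, the 40 lists (1436 of 1441 entries matched the table) and the tests were chosen with earlier results of these data known. Alternatives were 15 planned (added constant, filter, libraries and weights in the fit, scaling, replicate block, voom on recovered fragments, each library left out) and 2 added after seeing the data (chromosomes 8 and 11 left out, GC correction). Same-numbered day 0 replicates did not deviate together (correlation 0.0403 over 2 pairs), so the numbers were not taken as pairs.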

Additional observations from a re-analysis of the deposited data

Results flagged for a closer look

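The interaction term of limma, the genotype effect at day 15 minus that at day 0, passed an adjusted p of 0.05 for 4253 of 12542 genes, and for 28 of the 31 genes made up of Hira and the 30 largest day 0 changes. Those 30 were chosen for their day 0 change, which the term subtracts. The choice favoured passing, so 28 of 31 is a description. A positive difference is an effect that was higher at day 15. Hira differed by 1.37 on the log2 scale, so that the libraries labelled Hira-null were lower than WT in this gene at day 0 and not at day 15. H19, the largest fall at day 0, had an effect lower still at day 15, by -0.39.

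The basement membrane and endoderm genes Col4a1, Col4a2, Cubn, Lama1 and Dab2 had effects that were higher at day 15, by 2.3, 2.23, 1.32, 1.48 and 2.76 in that order. The same held for Hkdc1, Hs3st1, Slco2a1, Fxyd3, F3 and Ccnd2, by 0.81, 2.46, 0.83, 1.2, 2.02 and 2.53. Ntn1 differed by 5.14, being lower in Hira-null at day 0 and higher at day 15.

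Of the 15 largest rises at day 0, the germline genes Stra8 and Dazl had the largest differences, by -4.01 and -3.96, with values lower in Hira-null at day 15. Ctcfl, Tex101 and Sycp3 differed by -1.66, -2.07 and -2.11. Micall2, Fos, Igsf21, Cd37, Ndufa4l2, Gm6880, Cited4, Nags and Crb3 differed by -3.35, -2.76, -0.98, -2.21, -2.67, -2, -1.71, -2.24 and -2.64 in that order. Srgn, Gata4 and Fbxo2 did not pass the test of the difference. No group was large enough for a test of single libraries that lie far from the others, and what sets the days apart was not tested.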

How the results depend on the processing

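The counts of called genes kept within 1.5 times of their main values under most alternatives. Leaving out 1 day 0 library gave 3698 to 4983 changed genes in place of 5700, 1854 to 2579 higher in place of 2917 and 1844 to 2404 lower in place of 2783, the lowest of each without Hira-null replicate 1. Without Hira-null replicate 2, 1937 were higher. Genes changed by 2-fold or more numbered 1022 to 1155 in place of 1036 over these. A filter at 5 FPKM left 426 genes higher by 2-fold or more in place of 665, from fewer genes tested. Voom on recovered fragments gave 1605 genes changed by 2-fold or more, 1124 of them higher, and 566 with the same call at day 15 in place of 369, the cause of which was not tested. With chromosomes 8 and 11 left out, 1848 genes were lower, 237 by 2-fold or more, from fewer genes tested. The GC correction left 429 higher by 2-fold or more. Higher calls were 51.2% of all calls, 46.7% with a common median or the GC correction, 56.9% with a common upper quartile and 59.2% outside chromosomes 8 and 11.

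Among named genes the direction turned for 5, none of them past the test when turned. With the GC correction Hist3h2a was at 0.0483, Kdm6b at -0.0411, Ubn2 at 0.2391 and Daxx at -0.1689 on the log2 scale. Ubn2 was at 0.0369 with a common upper quartile, at 0.044 by voom and from -0.0886 to 0.077 with 1 library left out. Atrx was at -0.029 with a common median and from -0.0393 to 0.057 with 1 library left out. Over named genes and alternatives, 4728 values kept direction and side of the threshold, 134 lost the call, 2 gained one and 11 turned. Hira stayed between -1.42 and -1.11 and past the test throughout.

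With the replicate number as a block 5677 genes were called, and since the numbers share no more than a number this is not a paired analysis. The block moved no count of calls by over 1.5 times. Nanog was not past the test with it (adjusted p = 0.0503). Depth limits genes of a few fragments, whose folds depend on the added 1 FPKM. A single clone, 2 samples a line and bulk RNA limit all comparisons.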
